A study of Mus musculus with 3 samples.

Results

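The Oas family of mouse 2'-5' oligoadenylate synthetases was described in the cytosolic RNA of lipid A-stimulated macrophages through 8 genes, Oas1a, Oas1b, Oas1c, Oas1g, Oas2, Oas3, Oasl1 and Oasl2. The genes were chosen by symbol from the 55536 genes of the GENCODE M21 annotation (mm10). The rule held no measured value, but earlier results of these data were known when the members were chosen. All 8 were found, and all 8 passed the filter on low counts. The samples form 1 group of 3 libraries from bone marrow-derived macrophages (BMDM), which are primary cells of the inbred strain C57BL/6J grown from marrow. The cells had received lipid A, the part of bacterial lipopolysaccharide that receptors recognise, at 100 ng/ml for 50 min, and RNA of the cytosolic fraction was depleted of ribosomal RNA before sequencing. The labels call the libraries biological replicates 1, 2 and 3 and give them 1 donor label. They do not say whether separate animals or cultures were used, so each p-value reflects the scatter of these 3 samples alone, which can be technical. No unstimulated sample was analysed here, so no value is a response to lipid A.

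OAS proteins bind double-stranded RNA, a product of many viral infections, and the active enzymes then join ATP into short 2'-5' linked oligoadenylates. These oligoadenylates lead to cleavage of viral and cellular RNA. OAS genes are transcribed at a low level in resting macrophages and are induced by interferon through the factor ISGF3. Lipid A reaches this pathway through Toll-like receptor 4 (TLR4), which leads to production of interferon beta.

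Gene expected counts (estimated numbers of reads, not whole) summed to 33044910, 36769402 and 36522216 in libraries 1, 2 and 3. A count of 0 at these depths allows up to 3 counts, or 0.0908, 0.0816 and 0.0821 CPM (a count relative to the library total), and this limit covers counting error only. All 6 macrophage markers were at 1 TPM or more in each library, with a median of 299 TPM (a share of all transcripts in a library, corrected for transcript length). Of 42 markers of 8 other cell types, 37 were under 1 TPM in every library, 9 were at 0 in all of them, and the median was 0.0467 TPM. The 5 others were Pf4 (223 ± 17.8 TPM), Cd4 (26.7 ± 9.31 TPM), Tcf4 (22.7 ± 5.21 TPM), S100a9 (19.8 ± 2.41 TPM) and S100a8 (11.9 ± 0.376 TPM), each as mean ± SD (n = 3). Protein-coding genes held 38.3%, 26.6% and 34.8% of TPM in libraries 1, 2 and 3, and the TPM of the median detected protein-coding gene was 0.48 lower on the log2 scale in library 2 than in library 1. Levels are therefore also given on a protein-coding scale, on which the TPM of protein-coding genes are rescaled to the usual TPM total, and libraries are compared in log2 CPM after TMM scaling.

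Oasl2 was the highest member, Oas1a and Oas3 followed, and the other 5 lay lower. Together Oasl2, Oas1a and Oas3 made up 80.9% ± 0.835 (SD, n = 3) of the summed TPM of the family. The members summed to 192, 122 and 182 TPM in libraries 1, 2 and 3, and to 500.1, 458 and 523 on the protein-coding scale. The median member stood at 10.2 TPM, against a median of 9.39 TPM over the 9128 protein-coding genes that reached 1 TPM in all 3 libraries. In bulk RNA, fewer cells that express a gene and less of its RNA per cell cannot be told apart.

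**Figure D1:**
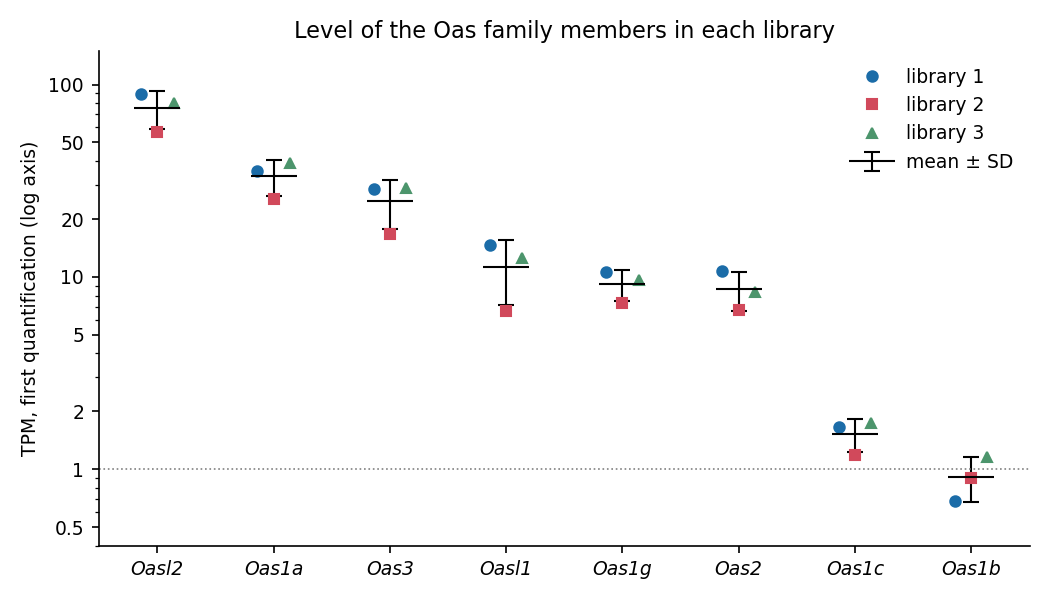
TPM of the 8 members in the first quantification on a log axis, with 1 point per library and the mean ± SD (n = 3); the dotted line marks 1 TPM. Oasl2 lies between 56.6 and 89.2 TPM, and Oas1b, the lowest, crosses the line between 0.68 and 1.16 TPM.

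Oasl2 encodes a synthetase followed by ubiquitin-like repeats and lies on chromosome 5 from 114896936 to 114912234 (mm10, plus strand). It had 89.2, 56.6 and 80.1 TPM in libraries 1, 2 and 3 (75.3 ± 16.8, SD, n = 3), from 6870, 6655 and 7785 counts. It stood above Oas1a in 3 of 3 libraries with no overlap, by 1.17 ± 0.15 on the log2 TPM scale. Its level exceeded that of 92.7% of the detected protein-coding genes.

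Its neighbour Oasl1 lies on the same strand from 114923240 to 114937915. The Oasl1 protein lacks synthetase activity and represses translation of Irf7, a driver of interferon production. Oasl1 had 14.7, 6.65 and 12.6 TPM (11.3 ± 4.17, SD, n = 3). Library 2 was low, and libraries 1 and 3 were higher.

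Oas1a and Oas1g encode active single-unit synthetases and are near-identical neighbours on the minus strand, Oas1a from 120896256 to 120907521 and Oas1g from 120876142 to 120887613. Oas1a had 35.4, 25.5 and 39.1 TPM (33.3 ± 7.01, SD, n = 3). Oas1g had 10.6, 7.32 and 9.60 TPM (9.18 ± 1.69, SD, n = 3). The ranges did not overlap, and Oas1a stood 3.34-, 3.49- and 4.07-fold above Oas1g in the 3 libraries (TPM ratio 3.63 ± 0.386).

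Oas2 and Oas3 carry repeated synthetase units, and Oas3 binds long double-stranded RNA. Oas3 (chromosome 5, 120753098 to 120777661, minus strand) had 28.7, 16.8 and 29.0 TPM (24.8 ± 6.97, SD, n = 3). Oas1a stood above Oas3 in 3 of 3 libraries by 0.45 ± 0.15 on the log2 TPM scale, although their ranges over libraries overlapped. By read number the order was the reverse, with 5382, 4678 and 6374 counts for Oas3 against 2502, 2687 and 3266 for Oas1a. The main Oas3 transcript has 4720 bases and that of Oas1a 1885. Oas2 (120730333 to 120749853, minus strand) had 10.7, 6.75 and 8.38 TPM (8.61 ± 1.98, SD, n = 3). Oasl1, Oas1g and Oas2 could not be ordered in the first quantification. Oasl1 was above Oas1g in 2 of 3 libraries and Oas1g above Oas2 in 2 of 3, with overlapping ranges in both pairs. In the second of the 2 deposited quantifications Oasl1 was again above Oas1g in 2 of 3. There Oas1g was above Oas2 in 3 of 3, by 0.28 ± 0.086 on the log2 scale.

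The lowest members were Oas1c and Oas1b, divergent neighbours whose annotated starts are 120 bases apart. Oas1c (120800194 to 120812514, minus strand) had 1.66, 1.18 and 1.74 TPM (1.53 ± 0.303, SD, n = 3) from 146, 133 and 140 counts. Oas1b (120812635 to 120824163, plus strand) had 0.68, 0.90 and 1.16 TPM (0.913 ± 0.240, SD, n = 3) from 34, 62 and 74 counts. Oas1c was above Oas1b in 3 of 3 libraries, with no overlap. The mean of Oasl2 was 82.5-fold that of Oas1b. At 1 TPM or more in each library were 7 of 8 members, all but Oas1b, and at 0.5 TPM or more all 8.

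Oas1b is the member for which the C57BL/6J genome is known to differ from wild mice. A premature stop in common laboratory strains truncates the protein and leaves these mice susceptible to flaviviruses, and the annotation lists the gene as a polymorphic pseudogene. The stop lies in exon 4 of 6 of Oas1b-203, at codon 253 of a frame of 376 codons, and was the single stop found in that frame. It is shown because it decides what the measured Oas1b RNA can encode, as the reference base sequence at chr5:120821284-120821334 (mm10, plus strand), with the stop codon (120821308 to 120821310) in capitals.
Oas1b stop region: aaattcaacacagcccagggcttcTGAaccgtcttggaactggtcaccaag

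The other 4 Oas1 genes of the annotation, Oas1d, Oas1e, Oas1f and Oas1h, lie among the members on chromosome 5 between 120786226 and 120921652. Oas1d, Oas1e and Oas1f had 0 counts in every library, so each is under the limit given above. Oas1h had 0, 2 and 0 counts. In the second quantification none of the 4 exceeded 4 counts in a library.

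Near-identical paralogs can exchange reads, so the 2 deposited quantifications were set side by side for the family. The annotated coding sequences of Oas1a and Oas1g have 1101 bases each and align without a gap, with 1065 identical bases (96.7%). The longest run without a difference has 231 bases. Of all 31-base words of Oas1a-201, 68.7% also occur in Oas1g, and 64.8% of those of Oas1g-201 occur in Oas1a. The next closest pair, Oas1b and Oas1g, is identical at 80.5% of aligned bases. Of its 31-base words, Oas1c shares 22.2% with any other gene, mostly with Oas1e, Oas1b shares 7.53%, Oas3 3.03%, Oasl2 0.485%, Oasl1 0.139% and Oas2 none.

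The stretch of 90 coding bases within 1 exon that holds the most differences between Oas1a and Oas1g is shown because reads here can be told apart. It covers coding bases 473 to 562 in exon 3 of 7 of both genes, at chr5:120901965-120902054 for Oas1a and chr5:120881980-120882069 for Oas1g (mm10, minus strand), and the 16 differing bases are in capitals.
Oas1a: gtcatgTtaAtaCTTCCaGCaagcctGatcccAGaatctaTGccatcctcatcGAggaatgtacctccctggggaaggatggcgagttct
Oas1g: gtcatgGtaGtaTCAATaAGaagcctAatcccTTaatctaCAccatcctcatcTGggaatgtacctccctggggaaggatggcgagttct
The coding sequences differ at 36 bases in all.

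The ratio of Oas1a to Oas1g counts was 4.06 ± 0.317 in the first quantification and 3.98 ± 0.438 in the second. Their TPM ratio was 3.63 ± 0.386 in the first and 3.21 ± 0.434 in the second. It was lower in the second in 3 of 3 libraries (3.14 against 3.34, 2.81 against 3.49 and 3.67 against 4.07), and the mean moved by more than 1 SD of the first. Oas1a stayed above Oas1g in both. The SD of read assignment that the authors' table gives was 0.411%, 0.383% and 0.332% of the Oas1a count and 1.66%, 1.44% and 1.46% of the Oas1g count. It was 0 for Oasl2, Oas3, Oasl1, Oas2 and Oas1b.

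**Figure D2:**
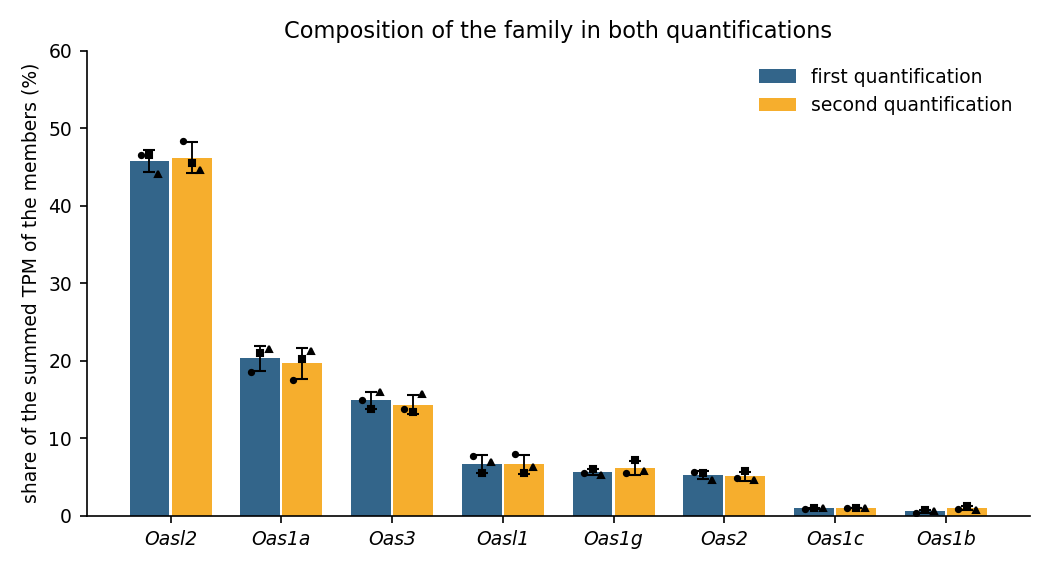
Share of each member in the summed TPM of the family, as mean ± SD (bars, n = 3) with the 3 libraries as points, in the first and the second quantification. Oasl2 holds 45.7% in the first and 46.2% in the second, and the order of the 8 members by mean share is the same in both.

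A share of the summed TPM of the members does not move with the level of other RNA. Between the quantifications it moved by less than 1 SD for 5 of 8 members, all but Oas1g, Oas1c and Oas1b. Oasl2 held 45.7% ± 1.40 in the first and 46.2% ± 1.99 in the second, Oas1a 20.3% ± 1.61 and 19.6% ± 1.96, and Oas3 14.9% ± 1.09 and 14.3% ± 1.25. Oasl1 held 6.69% ± 1.12 and 6.62% ± 1.24, Oas1g 5.61% ± 0.371 and 6.19% ± 0.905, and Oas2 5.25% ± 0.548 and 5.08% ± 0.604. On the protein-coding scale the members summed to 493 ± 33.0 in the first and 493 ± 29.5 in the second. Raw TPM of the second quantification are much lower (88.4, 45.3 and 40.9 for the sum), with 17.6%, 9.84% and 7.91% of TPM on protein-coding genes, and there 6 of 8 members reached 1 TPM in each library.

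Oas1b was the exception between the quantifications. Its estimated counts in the second were 2.68, 1.58 and 1.25 times those in the first in libraries 1, 2 and 3, against a median over all tested genes of 1.22, 1.08 and 1.10. For the other 7 members the mean ratio lay between 1.11 and 1.20. Oas1b held 0.578% ± 0.200 of the family in the first and 0.928% ± 0.258 in the second, and Oas1c 0.931% ± 0.057 and 1.04% ± 0.0057, so Oas1c stood above Oas1b in 3 of 3 libraries of the first but in 2 of 3 of the second. With 34 to 74 counts in the first and 91.3 to 98.2 in the second, Oas1b is the most uncertain level in the family.

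Isoforms were compared within each gene, for transcripts at 1 TPM or more on average in either quantification. Oasl2 RNA was assigned mainly to Oasl2-205, a transcript annotated as a target of nonsense-mediated decay, the pathway that degrades mRNAs with an early stop codon. It held 60.8%, 59.9% and 59.9% of Oasl2 TPM (60.2% ± 0.537, SD, n = 3), or 54.2, 33.9 and 48.0 TPM. The full-length coding transcript Oasl2-201 held 20.4%, 22.3% and 26.7% (23.1% ± 3.23). In the second quantification the order was the same, with 49.5% ± 1.30 for Oasl2-205 and 26.2% ± 5.84 for Oasl2-201, and Oasl2-205 was above Oasl2-201 in 3 of 3 libraries in both.

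Oasl2-205 has 5 exons against 6 in Oasl2-201. Its annotated start lies 806 bases further downstream, inside the coding part of the first exon, and its 169 annotated coding bases begin there. Whether the RNA starts at that base was not tested. Oasl2-205 joins the first exon to exon 3 of Oasl2-201. It leaves out an exon of 289 bases (chr5:114899742-114900030), a length that is not a multiple of 3. The junctions that tell the transcripts apart are shown with the shared end of the first exon (last base 114897862, plus strand) in lower case and the next exon in capitals, which starts at 114899742 in Oasl2-201 and at 114901240 in Oasl2-205.
Oasl2-201 junction: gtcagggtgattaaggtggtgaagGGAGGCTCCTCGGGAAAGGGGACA
Oasl2-205 junction: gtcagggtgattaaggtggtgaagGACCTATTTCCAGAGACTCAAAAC
All 2020 bases of Oasl2-205 also lie in exons of Oasl2-201, so apart from reads over this junction no read is particular to it, while 1103 bases of Oasl2-201 are outside it. The split rests on the authors' transcript assignment, and junction reads were not analysed here. Counts in the first quantification were 4143, 3858 and 4330 for Oasl2-205 and 2248, 2317 and 3101 for Oasl2-201. In the second they were 4573, 3360 and 3983 for Oasl2-205 and 2874, 3123 and 4018 for Oasl2-201. By count in the second, Oasl2-201 was thus the higher in library 3. The TPM shares also depend on the annotated lengths, 2020 and 3123 bases.

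**Figure D3:**
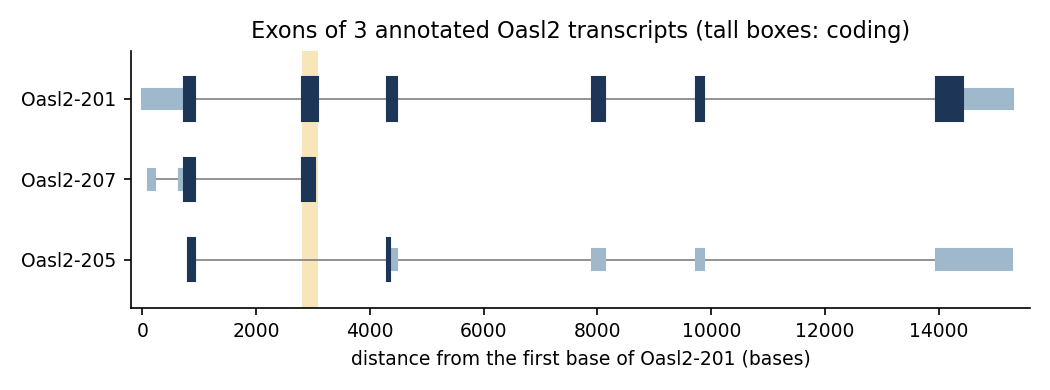
Exons of Oasl2-201, Oasl2-207 and Oasl2-205 drawn to scale against the distance in bases from the first base of Oasl2-201, with coding parts as tall boxes. The shaded exon of 289 bases is present in Oasl2-201 and partly in Oasl2-207 and absent from Oasl2-205, whose frame ends in the next exon.

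The short coding transcript Oasl2-207 held 3.71% ± 4.62 of Oasl2 TPM in the first quantification, with 0 counts in library 2, and 15.8% ± 4.37 in the second. Oasl2-204, annotated as retaining an intron, held 9.44% ± 3.40 and 3.53% ± 0.329, and Oasl2-208, of the same class, 1.78% ± 0.929 and 1.92% ± 0.894. Over all 4 coding transcripts of Oasl2 the share was 27.0% ± 3.95 in the first quantification and 42.4% ± 2.08 in the second, a difference larger than the spread between libraries.

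In Oas1g the leading transcript depended on the quantification. The coding transcript Oas1g-201 held 39.2%, 65.3% and 60.5% of Oas1g TPM (55.0% ± 13.9, SD, n = 3), and Oas1g-203, annotated for nonsense-mediated decay whose exon 3 is longer by 61 bases, held 49.7%, 28.8% and 36.5% (38.3% ± 10.6). Oas1g-201 led in libraries 2 and 3 and Oas1g-203 in library 1. In the second quantification Oas1g-203 led in 3 of 3 libraries, with 56.6% ± 7.82 against 31.8% ± 5.82.

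Oas3, Oasl1, Oas2 and Oas1c were assigned mostly to coding transcripts. Oas3-201 held 97.7% ± 0.143 of Oas3 TPM (97.8% ± 0.148 in the second), and Oas1a has 1 annotated transcript. Oasl1-202 held 74.8% ± 5.83 of Oasl1 (78.5% ± 14.4). Oasl1-201, which encodes as many coding bases, held 21.6%, 9.17% and 0% in libraries 1, 2 and 3. Oas2-201 held 67.4% ± 7.83 of Oas2 (66.1% ± 5.23). Oas2-202, with an additional exon of 93 bases, held 17.0% ± 1.60 (28.2% ± 4.35), and Oas2-204, which retains an intron, 14.4% ± 7.04 (3.30% ± 1.67). Oas1c-201 held 86.6% ± 12.5 of Oas1c (78.7% ± 4.96). The 2 leading Oas1b transcripts stayed under 1 TPM. Oas1b-203, which holds the stop shown above, took 65.8% ± 6.77 (58.8% ± 12.0), and the shorter Oas1b-202, with no coding frame, the rest. In the first quantification this split rests on 30.7, 54.15 and 68.23 counts for Oas1b-203 and 3.30, 7.85 and 5.77 for Oas1b-202.

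**Figure D4:**
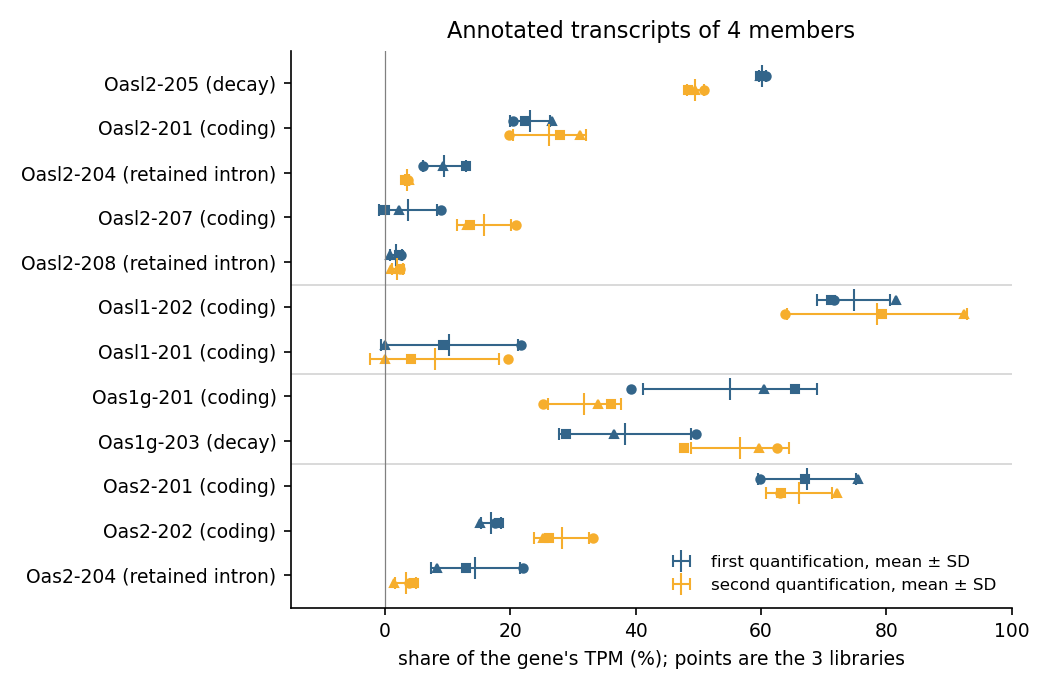
Share of the gene's TPM in the annotated transcripts of Oasl2, Oasl1, Oas1g and Oas2 that reach 1 TPM, as mean ± SD (n = 3) with the 3 libraries as points, in both quantifications; whiskers of a mean ± SD can pass below 0. Oasl2-205 leads its gene in both, whereas Oas1g-201 and Oas1g-203 change places between them.

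The upstream sequences of 6 members were present in the RefSeq promoter table (GRCm38.p6, 250 bases before to 50 after the gene's start), and Oas2 and Oas1b were not matched. The letters GAAANNGAAA, a core of the interferon-stimulated response element that ISGF3 binds, were searched on both strands. They occurred in 4 of these 6 windows, those of Oas1a, Oas1g, Oas1c and Oas3, and in 1131 of all 32851 windows (3.44%). In Oas1a, Oas1g and Oas1c 2 overlapping matches form the run GAAATGGAAACTGAAA, which was chosen after these sequences were seen and occurs in 7 windows (0.0213%), with Apol9a and Apol9b as the other genes. The sequences are shown because genes of unlike level carry the same run, with the matches in capitals. They are Oas1a at chr5:120907526-120907585, Oas1g at chr5:120887614-120887673 and Oas3 at chr5:120777695-120777754 (all minus strand), and the interval between the divergent starts of Oas1b and Oas1c at chr5:120812575-120812634 (plus strand).
Oas1a: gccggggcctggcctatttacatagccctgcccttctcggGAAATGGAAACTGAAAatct
Oas1g: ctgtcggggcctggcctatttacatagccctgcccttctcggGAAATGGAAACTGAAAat
Oas1b and Oas1c: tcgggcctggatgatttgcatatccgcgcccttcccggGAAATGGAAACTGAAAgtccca
Oas3: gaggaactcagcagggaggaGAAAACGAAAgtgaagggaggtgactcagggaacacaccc
The run ends 6 bases before the annotated start of Oas1b and lies 98 bases from that of Oas1c. Oas1b, the nearer of these genes, had no window of its own and stood at 0.913 TPM. In the Oas1c window the run is on the strand opposite to the gene. The 3 genes whose windows hold it stood at 33.3 (Oas1a), 9.18 (Oas1g) and 1.53 TPM (Oas1c), while Oasl2, the highest member, has no match in its window. Past that window, 2 matches lie on the opposite strand in the 729-base annotated leader of Oasl2-201, 186 and 157 bases before the coding start. Of 87014 transcripts at least that long, 6442 hold a match in their first 729 bases. A match describes letters and is no evidence of binding.

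Variation between the 3 libraries was tested over all genes, since 1 group allows no other comparison. Of 12231 tested genes, 203 (1.66%) varied beyond genes of their level (edgeR goodness of fit, adjusted p under 0.05), and 0 of 8 members did. At an unadjusted p under 0.05 there was 1 member, Oasl1, against 785 of all tested genes (6.42%), and a fit with DESeq2 size factors and dispersions also called 0 members and 189 genes. In simulated counts of 12231 genes the test recovered 42 of 100 genes moved 2-fold in 1 library and 100 of 100 moved 4-fold, so smaller shifts of a member may go uncalled. The moved genes were drawn from genes above a minimum mean count. The simulated counts followed the same dispersion trend that the test uses, so recovery among real genes can be lower.

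The log2 CPM of Oasl1 in libraries 1, 2 and 3 were 5.12, 4.29 and 4.84, a range of 0.83. Its unadjusted p was 0.00206 and its adjusted p 0.101 in the edgeR fit. Without replicate 2, its low library, the unadjusted edgeR p was 0.267. Over all alternatives the adjusted p lay between 0.0947 and 1.00. Oas1b had a wider range in the first quantification, 0.95 (0.05, 0.80 and 1.01), at far lower counts (edgeR adjusted p = 1.00). In the second quantification its counts were 91.3, 98.2 and 92.9. Its unadjusted edgeR p was 0.951 there, against 0.271 in the first. The ranges of the other 6 lay between 0.10 (Oas1g) and 0.39 (Oas3), and the median over all tested genes was 0.28. Of the 8 members, 5 were lowest in library 2, namely Oasl2, Oas1a, Oas3, Oasl1 and Oas1c, and 0 were highest there. Of the 12231 tested genes, 31.9% were lowest in library 2 and 3813 were highest there. On the protein-coding TPM scale 4 members were lowest in library 2 and 1 was highest. On that scale in the second quantification 4 were lowest in library 2 and 3 were highest. The share of all genes was not counted on that scale.

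Other genes of the pathway downstream of the synthetases were at 1 TPM or more in all 3 libraries. Akap7 and Pde12, whose products degrade 2'-5' oligoadenylates, stood at 6.40 ± 1.52 and 1.96 ± 0.312 TPM (SD, n = 3). Abce1, a ribosome recycling factor, stood at 13.0 ± 2.54 TPM. Of these 3, 0 were called and 0 had an unadjusted edgeR p under 0.05 (0 by DESeq2 dispersions), and their log2 CPM ranges were between 0.04 (Pde12) and 0.23 (Abce1).

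The genes that lead to and carry the interferon signal were all at 1 TPM or more in each library. From TLR4 to interferon beta, 11 of 11 were detected, and 1 of 11 was called, Ifnb1, the gene of interferon beta. It had 27.9, 5.51 and 22.6 TPM, and log2 CPM of 4.23, 2.36 and 4.06 (edgeR adjusted p = 4.32e-07), low in library 2. Without replicate 2 its adjusted edgeR p was 1.00. Of the interferon receptor, its kinases, ISGF3 and its feedback genes, 9 of 9 were detected and 0 were called (0 at an unadjusted edgeR p under 0.05, and 0 by DESeq2 dispersions). The ISGF3 subunits Stat2 and Irf9 stood at 20.2 ± 4.71 and 16.9 ± 3.44 TPM, and Irf7, whose translation Oasl1 represses, at 55.8 ± 11.0 TPM.

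Of 25 other interferon-stimulated genes, 25 were detected and 5 were called. Of the 8 Oas genes 0 were called, and of all tested genes 203 of 12231 (1.66%), a share at which 0 of 8 is unremarkable. The called genes were the chemokine gene Cxcl10 (234.7, 45.9 and 233 TPM), Ifit1 (54.5, 15.5 and 36.9 TPM), Isg15 (56.4, 37.4 and 88.5 TPM), Gbp3 (17.2, 9.74 and 23.4 TPM) and Bst2 (101, 113 and 172 TPM). All but Bst2 were lowest in library 2. Without replicate 2 none of the 5 was called (adjusted edgeR p from 0.0505 for Bst2 to 1.00 for Cxcl10 and Ifit1), while Isg15, Gbp3 and Bst2 also lost their call without replicate 3, and Bst2 without replicate 1. Gbp3 was also not called with DESeq2 (adjusted p = 0.0639) or with edgeR and no filter (adjusted p = 0.0705). Bst2 was also not called by edgeR with no filter (adjusted p = 0.0809) or in the second quantification (adjusted p = 0.0816). In the list 18 of 25 were lowest in library 2 and the median deviation from the gene's mean was -0.185 there, against -0.083 in the Oas family and 0.003 over all tested genes. Whether the Oas family differs from this list was not tested.

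All 5 nuclear retained RNAs of the list, Malat1, Neat1, Firre, Kcnq1ot1 and Rn7sk, were highest in library 2 and were called. Malat1 stood at log2 CPM 11.06, 12.35 and 10.07 (edgeR adjusted p = 3.91e-09). Without replicate 2 the adjusted edgeR p was 0.157 for Malat1 and 1.00 for Neat1, Firre and Kcnq1ot1. Rn7sk (log2 CPM 13.80, 13.96 and 11.84) was low in library 3 instead. By edgeR its call held without replicate 2 (adjusted p = 9.56e-06) and was lost without replicate 3 (adjusted p = 1.00). Firre was also not called with DESeq2 (adjusted p = 0.0731), nor by edgeR with no filter (adjusted p = 0.120) or without replicate 3 (adjusted p = 0.881). Kcnq1ot1 was also not called by edgeR with no filter (adjusted p = 0.0684), in the second quantification (adjusted p = 0.0889), without replicate 1 (adjusted p = 0.0663) or without replicate 3 (adjusted p = 0.0521). Counts on the mitochondrial genome were 0.993%, 0.634% and 0.296%. Their part in the values of Oasl1 and the other members was not tested.

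**Figure D5:**
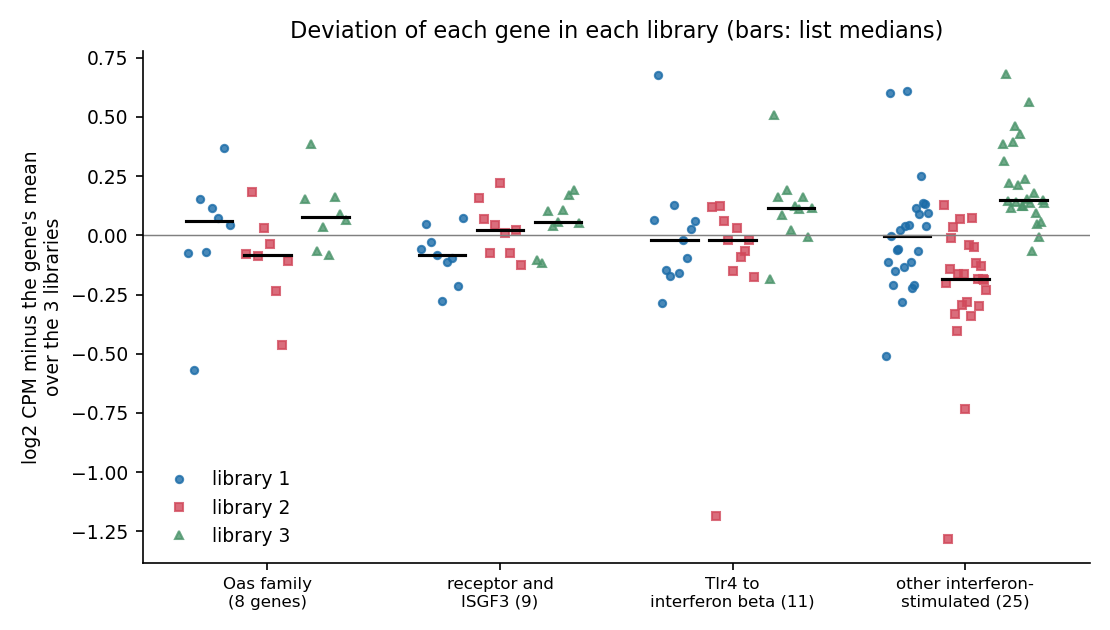
Log2 CPM of each gene in the first quantification minus its mean over the 3 libraries, by gene list and library, with list medians as bars. In the Oas family, Oas1b (-0.569 in library 1) and Oasl1 (-0.461 in library 2) reach farthest from 0, and Oas3 lies at -0.235 in library 2. Ifnb1 and Cxcl10 form the lowest points in library 2.

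The pattern of Oasl2 over the 3 libraries was most like that of Usp18, a protease gene of the interferon feedback loop, with a root mean square difference of centred log2 CPM of 0.0198 among 45 genes of the interferon lists. Ifih1, a sensor of double-stranded RNA (0.0468), and Ticam1, the adaptor of TLR4 signalling (0.0475), came next. This describes 3 points per gene. The 3 named genes are 3 of the 45, and 840 of all tested genes (6.87%) were at least as close to Oasl2 as Ticam1. These shares are similar, so the order shows no link of Oasl2 to the named genes. Oasl2 was itself not called (edgeR unadjusted p = 0.760). Its log2 CPM range was 0.17, against a median of 0.28 over all tested genes. Among the members, by counts of the first quantification, Oas1a (0.0862) and Oas3 (0.0924) were closest to Oasl2 and Oas1b (0.433) was farthest.

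Annotated genes on the opposite strand overlap 3 members, and whether the counting used strand is not given in the sources used here, so these members carry that uncertainty. Overlap was taken over whole gene spans with introns, and the overlap of exons was not determined. Gm43068 overlaps Oas2 by 1273 bases and had 9, 9 and 14 counts against 1506, 1459 and 1463 for Oas2. Gm43069 overlaps Oas1c by 5430 bases and had 0, 1 and 0 counts, and Gm13822 overlaps Oasl1 by 38 bases and had 4, 2 and 1.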

How the data were processed

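Per the labels and the deposited notes, the authors quantified each library on its own against mm10 and GENCODE M21 and deposited expected counts and TPM per gene and transcript. The deposited tables hold a first quantification (gene and transcript tables) and a second (transcripts, summed here per gene). Their tools, versions and strand setting: not given in the sources used here. Of the gene table's rows, 26345 name no gene and held 0.365%, 0.162% and 0.0200% of counts in libraries 1, 2 and 3; they were left out.

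Members and lists were chosen with earlier results of these data known. The rule for named genes took all genes of every list (some are not reported here), the 3 genes of the interferon lists closest to the highest member and the transcripts at 1 TPM or more. Opposite-strand genes and the 31-base words were looked up in addition. Expected counts were rounded and tested with edgeR 4.0.16 (R 4.3.3): filterByExpr, TMM, trended dispersion, an intercept-only fit, a chi-square goodness of fit per gene, and Benjamini-Hochberg adjustment over all tested genes at 0.05. A prior count of 0.5 was added for log2 CPM. The design has 1 group, so the quasi-likelihood test has no contrast. DESeq2 1.42.0 gave an alternative. The fit was tested on simulated counts. The counts of the 3 libraries differ by more than counting noise, so none was treated as a repeat deposit; this does not show that they are separate samples. Coding sequences were aligned with Biopython 1.88, in Python 3.11.15 with pandas 2.3.3, and figures were drawn with matplotlib 3.10.9.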

Additional observations from a re-analysis of the deposited data

How the results depend on the processing

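No member was called under any alternative (0 of 8 in each, edgeR or DESeq2 dispersions), and 1 member or none had an unadjusted p under 0.05. Calls over all genes numbered 203 of 12231 in the main setting (1.66%) and 203 of 12231 with median-of-ratios size factors. They numbered 189 of 12231 with DESeq2 dispersions, 221 of 20709 with no filter and 200 of 13372 with the second quantification. With 1 replicate left out they lay between 89 of 12419 and 132 of 12511. At such small shares 0 of 8 members is unremarkable in each setting. The summed TPM of the members was 493 rather than 165 when rescaled to protein-coding genes, by construction, and lay between 152 and 187 with 1 replicate left out. The share of Oasl2 in the family stayed between 45.3% and 46.5%. Between quantifications the shares of 7 of 15 named transcripts moved by more than 1 SD; the cause was not tested. No paired analysis was possible because the series holds 1 group. With 3 libraries of 33044910 to 36769402 counts, 2-fold shifts of single genes can be missed. The level of Oas1b is the least certain, at 34 to 74 counts in the first quantification and 91.3 to 98.2 in the second.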
